A study of Mus musculus with 125 samples.

Results

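Chromatin accessibility of leukaemia cells that had lived with natural killer (NK) cells until day 10 was compared with that of cells harvested from the same kind of co-culture at day 4. The cells were lines C and D of mouse B-ALL, a leukaemia of early B cells, driven by the BCR/ABLp185 fusion kinase, and ATAC-seq, based on the cuts that the Tn5 transposase makes in open DNA, gave accessibility. The comparison used the B-ALL + NK libraries of both lines in experiments 9.5 and 9.6 and their 2 time points, 24 of the 125 libraries of the series. There were 3 libraries for each line, experiment and day, 12 from day 10 and 12 from day 4. Replicates 2 and 3 of line C at day 10 in experiment 9.5 differed by less than sampling noise (ratio of chi-square to degrees of freedom 0.834, against 1.12 to 6.80 in the 23 other pairs) and were averaged, which left 11 day 10 and 12 day 4 samples.

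Both lines were barcoded from one parental line, so they are not independent models. Leukaemia cells were sorted by their GFP before transposition, every condition held recombinant human IL-2, and NK cells were added afresh when the co-cultures were restarted at harvest. The genotype of the NK cells is not given on these labels. Days are those of the labels, and the study's text places the late harvest after day 10. B-ALL cells alone were sampled at day 4 only, so longer culture and longer NK exposure cannot be told apart. The study describes the replicates as biological, from separate wells of a line, and the labels give only their numbers, so p-values measure the spread between such wells. In bulk material, fewer cells with an open site and a less open site in each cell cannot be told apart.

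NK cells kill tumour cells with perforin and granzymes and secrete interferon-γ (IFN-γ). IFN-γ signals reach genes at the gamma-activated site (GAS) and at the interferon-stimulated response element (ISRE), to which interferon regulatory factors (IRFs) bind. Signals through both raise the accessibility and transcription of genes for antigen presentation, immunity GTPases and serpins, the last being protease inhibitors. B cell identity rests on other factors, among them PAX5, EBF1, E2A, PU.1 and RUNX1, and antigen receptor and stress signals reach chromatin through AP-1.

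A few stretches are printed because they carry the peaks that the results turn on, each with 1 searched motif in capitals. They were read from GRCm38, 5′ to 3′ on the stated strand. The first 3 lie in promoter peaks of the Serpina3 cluster, which were higher at day 10 or were open with NK cells on both days, and the other 4 lie in peaks that were lower at day 10.
Serpina3i promoter, GAS (chr12:104263010-104263038, plus strand): taagtgcttgTTCCCAGAAatcacccagt
Serpina3f promoter, ISRE core (chr12:104214407-104214435, minus strand): tgatttctagGAAATAGAActgataggtt
Serpina3f promoter, GAS (chr12:104214413-104214441, plus strand): tcagttctatTTCCTAGAAatcacccatt
Rasgrp3 promoter, ISRE core (chr17:75465473-75465501, minus strand): caggaggtcaGAAACTGAAgatcattctt
Bend5 intron, AP-1 (chr4:111455876-111455904, plus strand): gcggtagagacTGACTCAttaggttgaat
Vav3 intron, RUNX (chr3:109454735-109454763, plus strand): ctgtacagtacTGTGGTTtatacagagga
Atf3 intron, RUNX (chr1:191175546-191175574, minus strand): ggctactgagcTGTGGTTgctggtagctc
The searched letters were GAAANNGAA for the ISRE core, TTCNNNGAA for GAS, TGANTCA for AP-1 and TGTGGTT for RUNX, on both strands, and the 2 Serpina3f matches overlap. Within the 400 bases at their centre, 11.5%, 10.9%, 11.9% and 10.2% of all tested peaks held these motifs, so a match is a description and not a binding site. The peaks of Cd69, AY702102 and Ighd2-4 described later held no match of any of the 12 motifs searched.

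The libraries themselves differed between the days. The share of counts that fell in the 10000 strongest peaks was 30.5% at the lowest, 38.2% at the median and 43.4% at the highest in the day 10 samples, against 37.6%, 46.6% and 48.9% in the day 4 samples. It was lower at day 10 in 4 of 4 combinations of line and experiment (mean 38.0% ± 3.43, n = 11, against 45.1% ± 3.71, n = 12, SD; difference within combinations −6.83 percentage points, exact two-sided permutation p = 5e-05, adjusted p = 0.00045 over 9 such tests). Libraries alone at day 4 had 37.3% to 47.8%. The share in promoter peaks was also lower at day 10, at 51.2% ± 1.28 against 53.9% ± 1.16 (SD, n = 11 and 12, exact permutation adjusted p = 0.000564). Total counts were 3753064 to 9446082 per library at day 10 and 5499805 to 11784370 at day 4, and the authors' broad peaks numbered 26047 to 101211 and 41853 to 62541. The 101211 came from 1 library, replicate 2 of line D at day 10 in experiment 9.6, and the next highest at day 10 was 61613. The same library had the lowest share in the strongest peaks (30.5%) and in promoter peaks (48.1%). Markers of the B-ALL cells were open in the day 10 and day 4 samples, with 9 of 10 marker promoters detected, among them Cd79a and Pax5, and summed levels of 278 to 570 CPM at day 10 and 356 to 789 CPM at day 4. Over all annotated genes, 18307 of 31020 nearest peaks were detected.

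**Figure D1:**
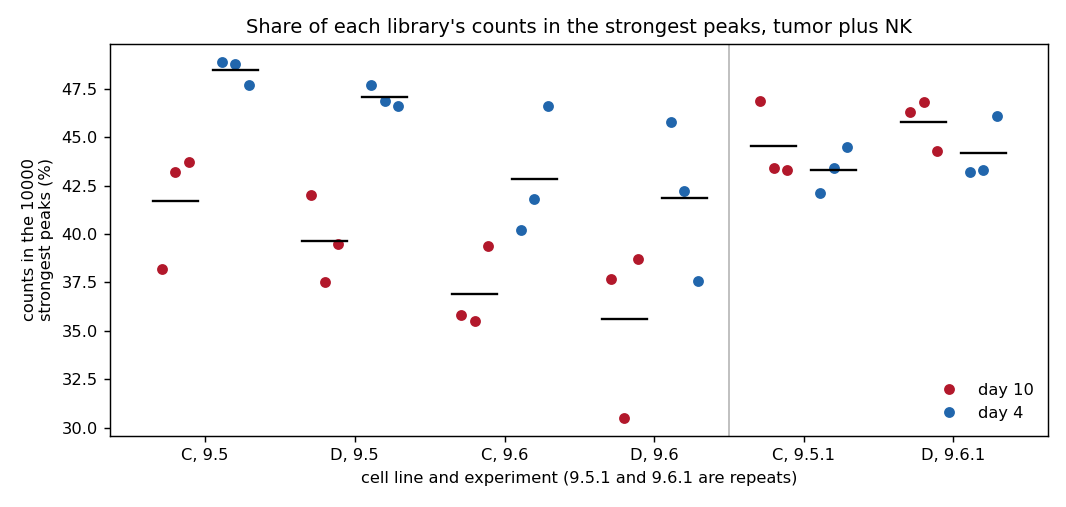
Percent of counts in the 10000 strongest peaks for each sample, by line and experiment, with day 10 left of day 4; points are samples and bars their mean. The day 10 mean lies lower in each of the 4 combinations of experiments 9.5 and 9.6, with means of 38.0% and 45.1% over all of them, and the points of the 2 days overlap in line D of 9.6.

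A peak was called when its adjusted p was 0.05 or below and its log2 fold change at least 0.58 in size (edgeR quasi-likelihood test, Benjamini-Hochberg adjustment over 156949 tested peaks, a term for each line and experiment). With TMM scaling, which sets 1 factor per library, 27662 peaks were more open (17.6% of those tested) and 11318 were less open (7.21%) at day 10. The sign was the same in 4 of 4 combinations for 91.5% of gains and 95.4% of losses, beside 55.5% of all tested peaks. The calls were made from these same samples, which by itself favours a shared sign, so these shares do not show replication. Direction followed strength. The median log2 fold change was 0.60 in the weakest decile of peaks and −0.48 in the strongest decile. Gains had a median level of 1.21 CPM and losses 9.47 CPM (CPM being counts scaled by library size). A broad peak detected in all replicates of some group was overlapped by 1.27% of gains and 74.2% of losses, beside 30% of all tested peaks.

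These counts move with the share of counts in strong peaks, so 2 further scalings stand beside them. A loess offset over peak strength, which centres weak and strong peaks alike and moves the median of all tested peaks from 0.12 to 0.01, left 8123 gains (5.18%) and 10449 losses (6.66%). Calls made under both scalings numbered 7172 gains (4.57%) and 5026 losses (3.2%), and no peak was called in opposite directions. With the share of counts in the strongest peaks as a further term, chosen after seeing the data, 34 gains (0.0217%) and 127 losses (0.0809%) remained past the thresholds. Of these, 17 gains and 125 losses were also TMM calls, and 16 and 114 were called under both scalings. The share and the day go together, so that term also takes up part of any difference between the days. When only the 47126 peaks detected in all replicates of at least 1 group were tested, 2888 were gains (6.13%) and 510 were losses (1.08%). Of the detected calls made under both scalings, 281 of 281 gains and 491 of 2213 losses were also called in that test. Its TMM factors were set on those peaks alone, which put their median log2 fold change at −0.01. In the main fit the medians of the 2 strongest deciles, where most peaks were detected, were −0.29 and −0.48. The origin of the fold changes was thus moved upwards, which keeps gains and removes losses, so these counts do not show which calls hold.

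**Figure D2:**
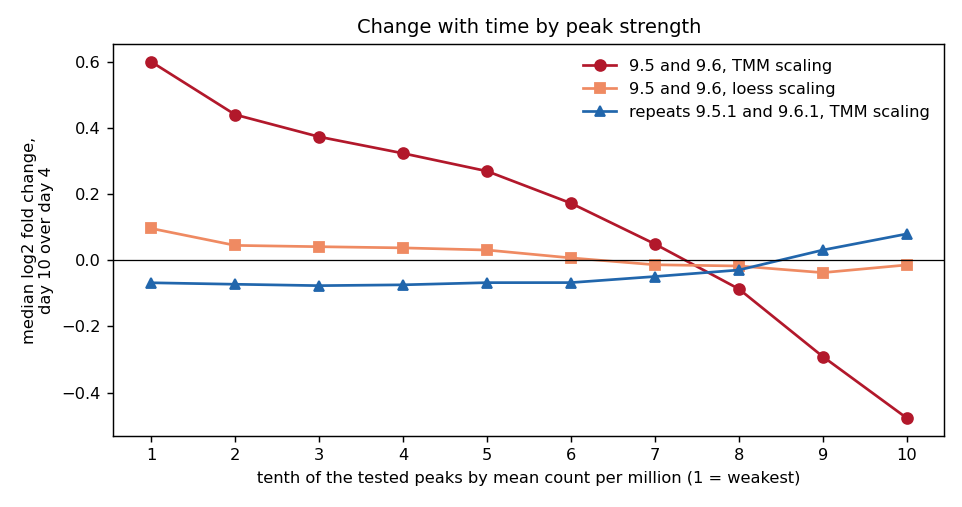
Median log2 fold change, day 10 over day 4, in deciles of tested peaks from the weakest to the strongest, for TMM scaling, the loess offset and the repeat experiments. Under TMM the medians run from 0.60 in the weakest decile to −0.48 in the strongest, and in the repeats from −0.07 to 0.08.

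In the rest of the account, a peak is named by its nearest transcription start site (TSS) in GENCODE M21, levels are TMM-scaled CPM over the 11 day 10 and 12 day 4 samples, and errors of a log2 fold change are standard errors. The peak with the smallest p among losses lay in an annotated intron 48521 bases upstream of AY702102 (chr2:170011009-170012407). Its level was 2.06 CPM at the lowest, 2.97 at the median and 5.35 at the highest at day 10, against 8.30, 10.9 and 14.2 CPM at day 4. The groups did not overlap, and B-ALL cells alone had a median of 12.7 CPM. The log2 fold change was −1.63 ± 0.12 (adjusted p = 2.69e-14), −1.51 with loess and −1.71 with the share term (adjusted p = 1.09e-05), and it was −1.36 to −1.97 in the 4 combinations. A neighbouring peak (chr2:170021819-170025464), nearest to A630075F10Rik, also separated the days (5.05, 6.41 and 8.49 CPM at day 10, against 8.76, 11.9 and 18.9 CPM at day 4, log2 fold change −0.89 ± 0.11, adjusted p = 1.92e-08). It and the Cd69, Fam71a, Atf3, Bend5 and Stk17b peaks were singled out after their values were seen.

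Cd69 encodes an early activation marker of lymphocytes, a lectin receptor of the NK gene complex. An intergenic peak 8598 bases downstream of its TSS (chr6:129265191-129268345) had 5.68, 18.1 and 27.7 CPM at day 10 as its lowest, median and highest level, against 29.9, 46.4 and 63.1 CPM at day 4. All day 10 samples were below all day 4 samples, and the median of B-ALL cells alone was 33.6 CPM. It fell by 1.32 ± 0.12 on the log2 scale (adjusted p = 1.06e-11), by 0.90 with loess and by 1.06 with the share term (adjusted p = 0.00351).

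Atf3 encodes a stress-induced transcription factor of the ATF/CREB family, and 3 peaks between its first kilobases and the neighbouring Fam71a fell together. The strongest, 3885 bases upstream of Fam71a (chr1:191166048-191171356), had 10.1, 17.7 and 29.7 CPM at day 10, against 22.7, 41.5 and 76.1 CPM at day 4 and a median of 25.8 CPM in cells alone. The groups overlapped, with a log2 fold change of −1.23 ± 0.11 (adjusted p = 4.93e-12) that was −1.10 with the share term (adjusted p = 0.000387). The peak 8257 bases upstream of Fam71a changed by −1.04 ± 0.12 (adjusted p = 5.96e-09). The intronic Atf3 peak, which holds the RUNX stretch printed above, changed by −1.08 ± 0.15 (adjusted p = 1.81e-07), with 1.86, 3.27 and 6.60 CPM at day 10 and 2.40, 8.66 and 12.3 CPM at day 4. That last peak did not pass with the share term (−0.74, adjusted p = 0.302).

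Rasgrp3 encodes a guanine nucleotide exchange factor through which B cell receptor signals load RAS with GTP. Its promoter peak (chr17:75464635-75466279), with the ISRE stretch printed above, had 0.946, 2.85 and 4.58 CPM at day 10, against 2.55, 6.49 and 18.4 CPM at day 4. The groups overlapped, and the median of cells alone was 5.49 CPM. It fell by 1.57 ± 0.17 on the log2 scale (adjusted p = 8.78e-10), by 1.56 with loess and by 1.90 with the share term (adjusted p = 0.000359). The log2 fold change was −0.60 in C and −0.62 in D in experiment 9.5, and −1.75 in C and −2.31 in D in experiment 9.6. The difference between the experiments was −1.47 and did not pass its own test (adjusted p = 0.376).

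Vav3 encodes a guanine nucleotide exchange factor that acts below antigen receptors. An intronic peak 40046 bases upstream of the nearest annotated Vav3 TSS (chr3:109454291-109455186) was weak, at 0.189, 0.552 and 1.26 CPM at day 10 and 0.604, 2.14 and 4.46 CPM at day 4. Its log2 fold change was −1.70 ± 0.25 (adjusted p = 6.55e-07), −2.00 with loess and −2.09 with the share term (adjusted p = 0.00728). The intronic peak of Bend5, which encodes a BEN-domain protein, lay 22598 bases downstream of its TSS (chr4:111455318-111456517) and separated the days. It had 1.81, 3.43 and 4.84 CPM at day 10 against 4.99, 11 and 14.7 CPM at day 4 (log2 fold change −1.51 ± 0.12, adjusted p = 3.26e-13). Stk17b, encoding a kinase of lymphocyte apoptosis and activation, had a peak 6793 bases downstream of its TSS that changed by −1.21 ± 0.14 (adjusted p = 1.32e-08).

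The 12 largest losses by fold change, chosen by the rule in the methods, ranged from −2.10 (1700048P04Rik) to −1.56 (Nr2c2). Beside AY702102, Vav3 and Rasgrp3 they were nearest to Gm11350, Chsy3, AC148013.1, Rps18-ps1, Gm37171, Ighd2-4 and Zfp24, and 4 of the 12 were detected. Ighd2-4 is a diversity segment of the immunoglobulin heavy chain locus, and its peak had 0, 1.76 and 9.65 CPM at day 10 against 1.13, 7.06 and 17.7 CPM at day 4. It was lower in both lines, by −3.16 and −3.23 in C and by −0.95 and −1.42 in D on the log2 scale, and the difference between lines did not pass (1.89, adjusted p = 1). Among promoters, the next 8 were Cep290, Gm26522, Gm25651, Gpr174, Pdlim5, Rab30, Zfp976 and Pkib, from −1.44 to −1.26. Rab30, a small GTPase of the Golgi, separated the days with 2.74, 4.09 and 7.54 CPM at day 10 against 8.03, 10.5 and 15.4 CPM at day 4 (−1.30 ± 0.13, adjusted p = 1.58e-10). So did Gm26522, with 0.588, 2.51 and 3.18 CPM at day 10 against 3.91, 6.00 and 8.05 CPM at day 4 (−1.40 ± 0.16, adjusted p = 5.81e-09).

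Among gains, the Serpina3 cluster held the peak with the smallest p in the fit with the share term. Serpina3i belongs to the mouse family of antichymotrypsin-like serpins, which inhibit serine and cysteine proteases, and its near-identical relatives leave the assignment of reads uncertain, since the handling of multi-mapping reads is not stated in the sources used here. An intergenic peak 9919 bases downstream of its TSS (chr12:104271927-104274226), singled out after its values were seen, had 3.29, 6.27 and 12.2 CPM at day 10, against 1.13, 2.11 and 4.09 CPM at day 4. The groups overlapped, with 8 of 11 day 10 samples above the highest day 4 sample and a median of 1.18 CPM in cells alone. It rose by 1.496 ± 0.15 on the log2 scale (2.82-fold, adjusted p = 9.32e-11), by 1.47 with loess and by 1.68 with the share term (adjusted p = 0.000301).

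The Serpina3i promoter (chr12:104262295-104263577), with the GAS stretch printed above, moved the same way. It had 2.83, 4.95 and 7.82 CPM at day 10 against 0.704, 2.12 and 3.70 CPM at day 4, and a median of 1.10 CPM in cells alone. The log2 fold change was 1.05 ± 0.15 (adjusted p = 5.64e-07), 0.96 with loess and 1.45 with the share term (adjusted p = 0.00351). The Serpina3f promoter, with its overlapping ISRE and GAS matches, depended on the scaling. It had 11.3, 26.4 and 44.8 CPM at day 10, against 14.4, 19.3 and 34.6 CPM at day 4 and a median of 4.77 CPM in cells alone. Its log2 fold change was 0.25 ± 0.12 under TMM (adjusted p = 0.064), and it was called with loess (0.64, adjusted p = 5.76e-07) and with the share term (0.82, adjusted p = 0.00662). Serpina3g, whose product inhibits lysosomal cathepsins, was called with loess only (0.62, adjusted p = 0.000947, against 0.53 under TMM).

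**Figure D3:**
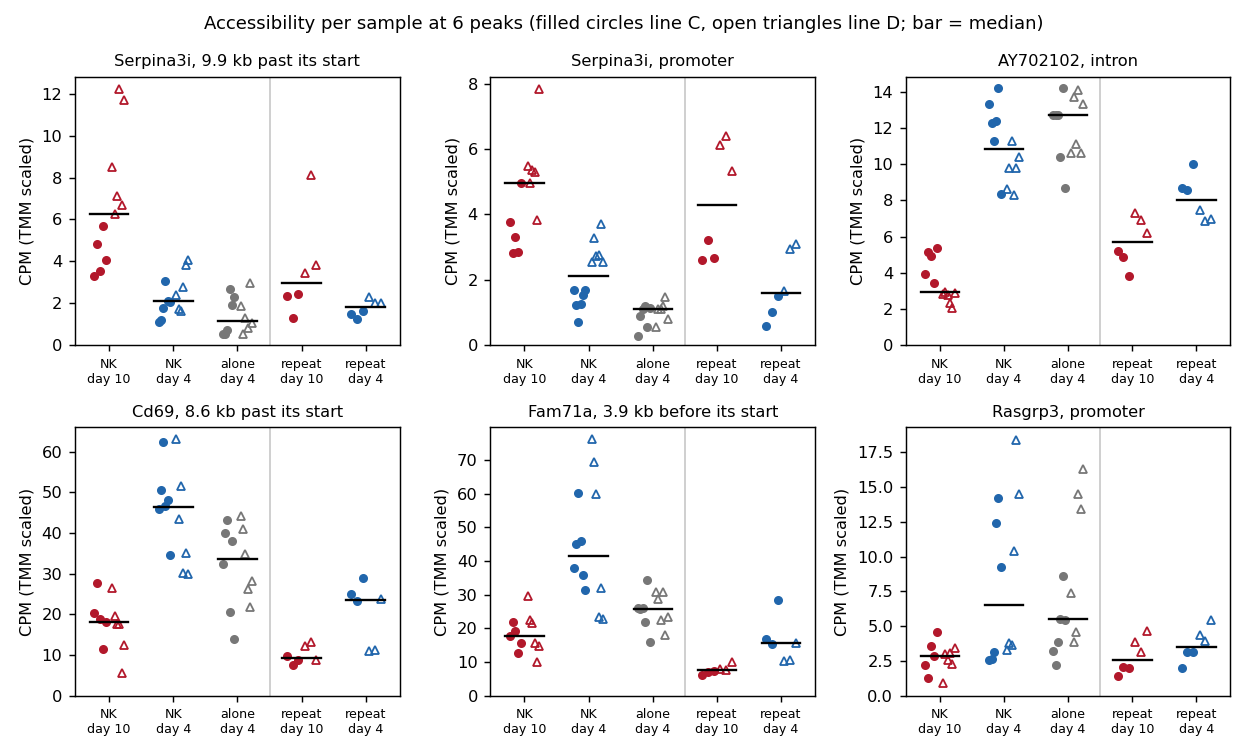
TMM-scaled CPM in each sample at 6 peaks, with B-ALL + NK at day 10 left of day 4, then B-ALL alone at day 4, then the repeat experiments at day 10 and day 4; circles are line C, triangles line D and bars medians. The day 10 median at the Serpina3i peak is 6.27 against 2.11 at day 4, and at AY702102 and Cd69 the day 10 points all lie below the day 4 points.

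The largest gains by fold change were weak peaks. The 12 largest ranged from 2.08 (Gm4251) to 1.83 (Habp2) on the log2 scale, with Fam241b, 1700065I16Rik, Gm45145, Cwc25, Tmem132c, Rnf25, Rpap2, Rab11b-ps2, Serpina3k and 2210414F02Rik between them. None was detected in all replicates of a group, and in each the 2 days overlapped. Rnf25, encoding a ubiquitin ligase, had 0.396, 0.820 and 1.40 CPM at day 10 and 0.0967, 0.2 and 0.565 CPM at day 4. It and Serpina3k were the ones among the 12 that passed with the share term (2.48, adjusted p = 0.031, and 2.76, adjusted p = 0.0211). The next 8 gains at promoters were Sdhaf2, Dlg4, Gm9132, Olfr1375, Gas7, Ulk4, Gm44722 and Shroom4, from 1.80 to 1.70. Sdhaf2, an assembly factor of succinate dehydrogenase, was the one whose groups did not overlap, at 0.631, 0.825 and 2.23 CPM at day 10 and 0, 0.353 and 0.576 CPM at day 4. Its peak was not detected in all replicates of a group and did not pass with the share term (1.23, adjusted p = 0.441). In the repeat experiments described later it was −0.04 (adjusted p = 0.988). The share of all tested peaks that separated the days is not given here, so separation is a description at this and the other peaks.

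Promoter peaks, with their centre within 3 kb of a TSS, gave 8911 gains (18.9% of 47268) and 4101 losses (8.68%) under TMM, and 3077 gains (6.51%) and 892 losses (1.89%) under both scalings. Gene lists of the co-culture were then read at the tested peak nearest each TSS, of which 4365 of 31020 over all annotated genes were gains (14.1%) and 3822 losses (12.3%). With loess these were 6.39% and 3.05%, and under both scalings 5.28% and 1.56%. Of 405 listed genes with a tested peak, 15 were higher and 61 lower under TMM, 14 and 12 with loess, and 7 and 9 under both. List medians under TMM lay between −0.55 and 0.32, with −0.49 for 16 housekeeping promoters and −0.22 over all annotated genes. With loess they lay between −0.17 and 0.37, against 0.03 over all annotated genes. The TMM counts of a list are therefore given beside those with loess.

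Interferon-response promoters with a higher median with NK cells than alone at day 4 differed in their level at day 10. Cmpk2, Gbp4 and Tgtp1 had medians of 26.8, 28.6 and 29.9 CPM at day 10, against 43, 42.1 and 43 CPM at day 4 and 31.3, 25.9 and 23.3 CPM alone (−0.61, −0.578 and −0.46 under TMM, of which Cmpk2 was called, and −0.15, −0.12 and 0.01 with loess). At 3 others the days differed less. Mx1, an antiviral GTPase, had 14.6, 18.9 and 26.1 CPM at day 10 against 16.9, 18.7 and 24.1 CPM at day 4, and a median of 8.15 CPM alone (log2 fold change −0.02 ± 0.10, adjusted p = 0.9). Iigp1, an immunity-related GTPase, had 5.68, 12.2 and 15.6 CPM at day 10 against 5.28, 13.3 and 19.4 CPM at day 4, and a median of 3.27 CPM alone (−0.09 ± 0.13, adjusted p = 0.602). Ly6a, a surface antigen of progenitors and activated lymphocytes, had 22.9, 33.5 and 51.5 CPM at day 10 against 32.0, 38.7 and 47.8 CPM at day 4, and a median of 17.5 CPM alone (−0.16 ± 0.11, adjusted p = 0.212). The days overlapped at these last 3 promoters, which like the first 3 were chosen after their values were seen, and with loess Mx1 and Ly6a were higher at day 10 by 0.37 and 0.32, under the threshold of 0.58. The promoter of Pla2g16, the gene for PLAAT3, did not pass the thresholds either (13.5 CPM at day 10 against 22.6 at day 4 at the median, 16.3 alone, −0.53 ± 0.12).

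Of 50 antiviral interferon-stimulated genes, 0 were gains and 6 were losses under TMM (Cmpk2, Ddx58, Ifi203, Ifi206, Samhd1 and Trim30a, −0.63 to −0.58), and 0 were called with loess, where 10 were higher and 2 lower at an adjusted p of 0.05 whatever the fold change (over all annotated genes 15.7% and 10.7%). Of 22 IFN-γ-induced GTPases, 1 was a loss (9930111J21Rik2, −0.67, also with loess). The interferon signalling list of 24 genes held 1 loss, Ifngr1, the receptor chain that binds IFN-γ (−0.62, −0.14 with loess), and 1 gain, Nlrc5, the transactivator of MHC class I genes. The Nlrc5 promoter had 1.02, 1.49 and 2.64 CPM at day 10 and 0.141, 0.757 and 1.35 CPM at day 4 (1.17 ± 0.25, adjusted p = 0.000147; 0.82 with loess). Of 26 genes of MHC class I presentation, Tapbp, the tapasin of the peptide-loading complex, was higher (0.82 ± 0.14, adjusted p = 7.94e-06, 6.44 CPM at day 10 and 3.98 CPM at day 4 at the median) and B2m lower (−0.59 ± 0.11, −0.08 with loess). Irf1, Tap1 and H2-K1 gave −0.37, −0.30 and −0.32 under TMM and 0.19, 0.24 and 0.20 with loess, and none passed the thresholds. Of 11 class II genes, H2-Eb2 was lower (−0.67, −0.28 with loess).

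The 14 tested Ly6, PLAAT and Ms4a genes had the highest list median, 0.32 under TMM and 0.37 with loess, and 0.31 with the share term. Ly6k (0.86) and Ms4a6c (0.67) were gains under TMM, and Gm8369, Ms4a6b and Ms4a6d with loess (0.72, 0.70 and 0.64). Ms4a genes encode membrane proteins with 4 spans and are close paralogs, so reads may be split between them. Ms4a6b had 6.84, 10.3 and 17.2 CPM at day 10, against 5.08, 7.29 and 10.7 CPM at day 4 and a median of 2.2 CPM in cells alone. Gm8369 had medians of 9.12 CPM at day 10, 6.49 CPM at day 4 and 1.59 CPM alone.

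B cell identity and pre-BCR genes lost calls when the scaling changed. Of 40, 17 were lower under TMM and 2 with loess, with a list median of −0.55 and −0.10. Lyn, a Src-family kinase of B cell receptor signalling, had 20.5, 32.1 and 41.6 CPM at day 10 against 43.2, 58.4 and 70.0 CPM at day 4, with no overlap (−0.82 ± 0.10, adjusted p = 2.38e-08, −0.33 with loess). The promoters of the kinases Syk (−0.79), Btk (−0.64) and Blk, the adaptor Blnk (−0.66), the factors Bach2 (−0.73), Ikzf3 (−0.72), Irf4 (−0.63), Lef1, Pou2f2 and Spib, the receptors Cr2 and Il7r, the recombinase subunit Rag2 (−0.73) and the surrogate light chain Vpreb1 (−0.61) were also losses under TMM and not with loess. Bank1, a scaffold of B cell receptor signalling, and Rasgrp3 were lower under both. Tcf3, which encodes E2A, and Cd22, an inhibitory co-receptor, were higher under both. Tcf3 had 3.98, 6.62 and 13.6 CPM at day 10 against 1.55, 4.00 and 6.48 CPM at day 4 (0.82 ± 0.17, adjusted p = 0.000128), and Cd22 had medians of 4.95 and 3.26 CPM (0.71 ± 0.14, adjusted p = 4.07e-05). Neither peak was detected in all replicates of a group.

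The other lists held few calls under both scalings. Bcl6, a repressor of the germinal centre programme and a STAT5 target, was lower (−0.88 ± 0.14, adjusted p = 3.74e-06), as was Ppargc1a, a coactivator of mitochondrial genes (−0.91 ± 0.16, adjusted p = 8.22e-06). Of the chemokines, Cxcl16 was higher (0.73) and Cxcl11 lower (−0.84). Under TMM alone, Cd70 and Fosl2 were gains, and losses were seen at Cd48, Icam2, Nt5e, Bcl2, Bcl2l1, Casp1, Pmaip1, Nfkbiz, Rel, Ccr7, Ccnd3, Dusp6, Etv5, Spry2, Egr2, Fos, Fosb, Klf6, Cdkn2c, Mcm3, Pcna, Rrm2, Ndrg1, Pgk1, Hprt and Tbp. With loess alone Batf2 and F830016B08Rik were gains and Cd200, Casp4 and 9930111J21Rik1 losses.

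Markers of other cells were read the same way, and their part in the results was not tested. Of 16 tested NK cell marker promoters, 8 were detected, beside 18307 of 31020 nearest peaks over all annotated genes. The summed level of the 16 was 68.6 to 86.0 CPM at day 10 and 81.5 to 97.8 CPM at day 4, with 75.6 to 94.3 CPM in cells alone. Of these, Klri2 (−0.81), Klra1 (−0.81) and Klrc1 (−0.72) were lower under both scalings and Klrd1 (−0.64) under TMM. Summed T cell markers gave 56.6 to 104 CPM at day 10 and 59.1 to 125 CPM at day 4, and myeloid markers 50.8 to 69.3 and 56.5 to 70.4 CPM. Elane was the myeloid gene higher under both scalings (0.97, median 1.65 CPM at day 10 and 1.06 CPM at day 4). Under TMM alone, Mpo, Cd8a, Cd8b1 and Bcl11b were gains and Cd14 a loss.

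Tested apart, experiment 9.5 gave 16591 gains (13.9% of 119176) and 6326 losses (5.31%), and experiment 9.6 gave 15379 gains (11.1% of 138698) and 9153 losses (6.6%). Among the 115872 peaks tested in both, 6609 gains were shared (42% of those in 9.5 and 51.4% of those in 9.6), as were 2971 losses (47.1% and 33.8%). There were 3 peaks called in opposite directions, and 82.4% of all these peaks had the same sign. The test of the difference itself, 9.6 minus 9.5, gave 0 gains (0%) and 1 loss (0.000637%) with edgeR, with 7197 peaks (4.59%) at an unadjusted p under 0.05, and 0 of either with the loess offset (8459 peaks under 0.05). The 1 peak lay at the promoter of 5730522E02Rik (−1.70, adjusted p = 0.0354), where the log2 fold change was 0.39 in C and 1.05 in D in 9.5 and −1.19 in C and −0.74 in D in 9.6. Next in p, with an adjusted p of 0.0753, were the promoter of Adgrl3, an adhesion receptor (−1.37), a peak near Gm5970 (−1.50) and a peak near Gm27533 (2.10). Line D minus line C gave 0 gains (0%) and 0 losses (0%), with 5190 peaks (3.31%) at an unadjusted p under 0.05, and 0 with loess (6283 peaks).

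Lines A and B, from another parental line, were harvested at the same days in the same experiments. They gave 297 gains (0.189%) and 980 losses (0.624%) over the same peaks, and the test of the difference (C/D minus A/B) called 2374 peaks in the positive direction (1.51%) and 6103 in the negative direction (3.89%). With loess these were 1015 and 1558. Of the C/D gains 0.589% and of the A/B gains 54.9% were shared (163 peaks), and of the losses 2.42% and 28% (274 peaks). The sign in A/B was that of C/D for 84.2% of gains and 84.2% of losses, beside 56% and 44% of all tested peaks. Direction followed strength in A/B too, with a median log2 fold change of 0.155 in the weakest decile and −0.108 in the strongest. C/D gains were mostly weak and losses mostly strong, so these shares do not show agreement peak by peak. The share of counts in the strongest peaks differed less in A/B, at 41.3% ± 4.26 at day 10 and 43.2% ± 1.63 at day 4 (SD, n = 12 each, exact permutation adjusted p = 0.111). Their share in promoter peaks was lower at day 10, at 53% ± 1.24 against 54.4% ± 0.992 (SD, n = 12 each, exact permutation adjusted p = 0.00497). The Cd69 peak was one that differed, at −1.32 in C/D and −0.09 in A/B (difference −1.27, adjusted p = 1.72e-05), as did Gm26522 (−1.40 and 0.09) and Lhfp (−0.86 and 0.36). A peak 4761 bases upstream of Mir6381 rose in C/D (0.96 ± 0.15) and was −0.41 in A/B (difference 1.34, adjusted p = 1.04e-05). Rasgrp3 had −1.57 in C/D and −1.68 in A/B, a difference of 0.08 (adjusted p = 0.878), and the Serpina3i promoter had 1.05 and 1.10 (difference −0.09, adjusted p = 0.852).

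Line C was cultured again in experiment 9.5.1 and line D in 9.6.1, with 6 libraries at day 10 and 6 at day 4. There the share of counts in the strongest peaks was 45.2% ± 1.70 at day 10 and 43.7% ± 1.36 at day 4 (SD, n = 6 each, exact permutation p = 0.135, adjusted p = 0.174), and 225 gains (0.143%) and 301 losses (0.192%) were called. Of the gains of 9.5 and 9.6, 42.6% were higher in the repeats, beside 46.5% of all tested peaks, and of the losses 42.3% were lower, beside 53.5%. With loess these shares were 52% of gains, beside 49.8% of all tested peaks, and 51.3% of losses, beside 50.2%. Shared calls were 7 gains (0.0253% of those in 9.5 and 9.6, 3.11% of those in the repeats) and 54 losses (0.477% and 17.9%), and 15 gains and 51 losses were called the opposite way. The difference between 9.5 with 9.6 and the repeats, added after seeing the data, passed at 13744 peaks in the positive direction (8.76%) and 13433 in the negative direction (8.56%).

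Of the 34 gains called with the share term, 3 had the same sign and 2 the other sign in the repeats at an adjusted p of 0.05, and of the 127 losses 10 and 5. Over all 156949 tested peaks, 1102 were higher and 401 lower in the repeats at that adjusted p, whatever the fold change. The Cd69 peak fell by 1.07 in the repeats (adjusted p = 1.76e-08), with 7.47, 9.35 and 13.3 CPM at day 10 against 11, 23.4 and 29.0 CPM at day 4. The lines differed there, with medians of 8.85 CPM at day 10 against 25.1 CPM at day 4 in line C, and 12.3 CPM at day 10 against 11.2 CPM at day 4 in line D. The Fam71a peaks fell by 1.13 (adjusted p = 1.22e-08) and 1.33 (adjusted p = 4.17e-09) and the Atf3 intron by 1.43 (adjusted p = 2.25e-06). The Vav3 peak fell by 1.81 (adjusted p = 0.00724), with medians of 0.32 CPM at day 10 against 1.81 CPM at day 4 in line C and 0.533 against 0.464 CPM in line D, and Stk17b by 0.73 (adjusted p = 0.00182). At the Fam71a, Atf3 and Stk17b peaks the medians were lower at day 10 in both lines, but less so in line D. The Atf3 intron had 1.97 against 6.78 CPM in line C and 1.56 against 2.5 CPM in line D, and Stk17b 4.63 against 8.72 CPM and 5.68 against 6.97 CPM. The Serpina3i promoter rose by 1.27 (adjusted p = 5.22e-05), with 2.60, 4.28 and 6.39 CPM at day 10 against 0.594, 1.59 and 3.10 CPM at day 4, and the peak downstream of it by 0.89 (adjusted p = 0.0238). AY702102 gave −0.57 (adjusted p = 0.0169), short of the 0.58 threshold. Its medians were 4.89 CPM at day 10 against 8.71 CPM at day 4 in line C, and 6.91 against 6.97 CPM in line D. Rasgrp3 gave −0.41 (adjusted p = 0.412) and Bend5 −0.17 (adjusted p = 0.77). Rab30 was 0.54 in the repeats (adjusted p = 0.0129), the other sign. The smallest p among repeat gains were at Irf8, a factor of interferon response and B cell development (1.11), Gm15899, Psap and the histone genes Hist1h2bg and Hist1h2bk (0.65 and 0.60, against −0.82 and −0.70 in 9.5 and 9.6). Those among repeat losses were 5330413D20Rik, H3f3b, both Fam71a peaks and Btbd9 (−1.0, against 0.41).

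**Figure D4:**
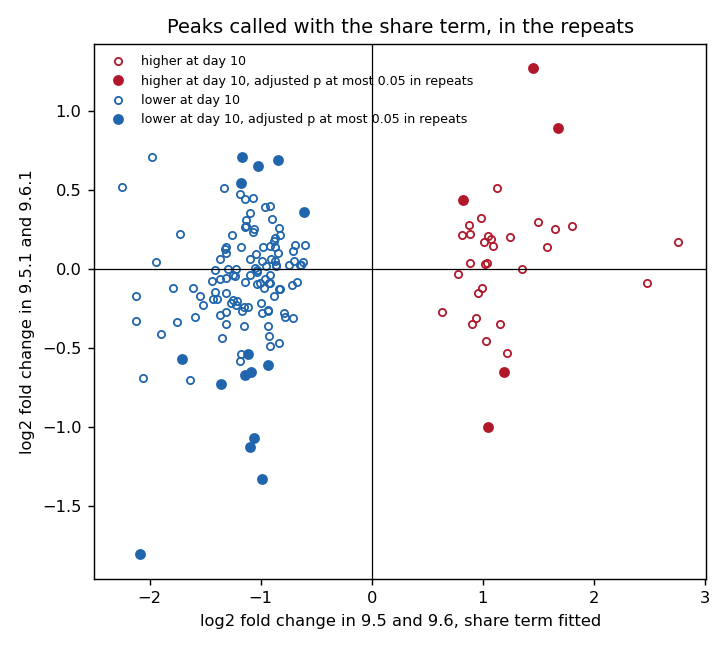
Log2 fold change, day 10 over day 4, of the 161 peaks called with the share term (x axis) against their log2 fold change in the repeat experiments (y axis); filled points have an adjusted p of 0.05 or less in the repeats. Filled points number 5 among the 34 gains and 15 among the 127 losses, with Cd69 at −1.07 and the Serpina3i promoter at 1.27 in the repeats. Over all 156949 tested peaks, 1102 were higher and 401 lower in the repeats at that adjusted p.

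In experiment 9.7 both lines were harvested with NK cells at day 16 and day 6, so its days differ and its values are given side by side. It gave 9237 gains and 11428 losses, 5.89% and 7.28% of tested peaks. Of the gains of 9.5 and 9.6, 32.4% were higher at day 16 in 9.7, beside 40.4% of all tested peaks. Of the losses, 40.8% were lower, beside 59.6% of all tested peaks. The share of counts in the strongest peaks was 48.4% to 50.9% at day 16 and 43.0% to 47.3% at day 6, higher late where it was lower late in 9.5 and 9.6. The Fam71a peaks were −2.12 and −1.85, the Atf3 intron −1.46, Cd69 −0.97, Stk17b −1.18, Vav3 −0.96 and the Serpina3i promoter 0.85, each at an adjusted p under 0.05. Rasgrp3 was −0.74 (adjusted p = 4.85e-05). The peak downstream of Serpina3i (0.17, adjusted p = 0.592), AY702102 (−0.10) and Bend5 (−0.05) were not called there, and Ercc6, which fell by 1.23 in 9.5 and 9.6 and by 0.61 in the repeats, was 0.87. In the repeats Ercc6 had medians of 7.99 CPM at day 10 against 15 CPM at day 4 in line C, and 9.32 against 8.67 CPM in line D. Of the 7 gains and 54 losses called both in 9.5 with 9.6 and in the repeats, 3 and 20 were also called in that direction in 9.7.

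Gains and losses called under both scalings differed in place and base composition. Promoters made up 42.9% of gains and 17.7% of losses, beside 30.1% of all tested peaks, and median GC content of the central 400 bases was 56%, 42% and 50.2%. ISRE cores were held by 22.8% of losses (95% exact binomial interval 21.6 to 24, counting error only) and 5.52% of gains (5 to 6.07), beside 11.5% of all tested peaks. GAS motifs were held by 18.2% of losses and 7.26% of gains, beside 10.9% of all tested peaks. In the same order, the PU.1 motif GAGGAAGT was held by 9.59%, 2.57% and 4.74% and RUNX by 14.4%, 6.22% and 10.2%. AP-1 was held by 14.9%, 8.34% and 11.9% and the octamer ATGCAAAT by 3.48%, 0.587% and 1.73%. The motifs of SP and KLF factors, E2A, EBF1, CTCF and NF-kappaB ran the other way. GGGCGG (SP and KLF) was in 3.74% of losses, 17.4% of gains and 13% of all tested peaks. The E2A E-box CAGCTG was in 18.9%, 31.6% and 25.5% and the EBF1 core TCCCNNGGG in 6.57%, 11.5% and 9.58%. The CTCF core CCACNAGGG was in 1.75%, 3.74% and 2.71% and the NF-kappaB core GGANNTTCC in 3.36%, 4.65% and 4.45%. The part of base composition in these shares was not tested. The calls of the share term did not show most of these contrasts. Of its 127 losses and 34 gains, ISRE cores were held by 16.5% and 17.6%, GAS by 20.5% and 20.6%, RUNX by 11% and 17.6%, PU.1 by 6.3% and 11.8%, AP-1 by 8.66% and 2.94% and the E2A E-box by 29.9% and 23.5%, in the gains from 1 to 8 peaks each.

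Peaks of the X chromosome were lower at day 10. The median log2 fold change of its 1893 tested peaks was −0.48 under TMM, −0.43 with loess and −0.23 with the share term, while medians of the 19 autosomes lay between −0.02 and 0.25, between −0.11 and 0.11 and between −0.08 and 0.11. It was −0.40 and −0.33 in C and D in experiment 9.5 and −0.61 and −0.48 in experiment 9.6, each below every autosome of the same combination. The X chromosome held 1.21% of tested peaks, 7.62% of losses and 0.251% of gains called under both scalings. Its share of counts was 1.09% ± 0.12 at day 10 and 1.29% ± 0.158 at day 4 (SD, n = 11 and 12, lower in 4 of 4 combinations, exact permutation adjusted p = 0.000564). The Hprt promoter, a housekeeping gene of the X chromosome, separated the days with 7.06, 14.0 and 18.5 CPM at day 10 against 19.7, 23.7 and 32.3 CPM at day 4 (−0.81 ± 0.12, −0.45 with loess). In the repeats the X median was −0.03, within the range of the autosomes (−0.06 to −0.0002), and in A/B it was −0.19, below the autosomes (−0.03 to 0.11). Peaks of the X chromosome had a median GC content of 47.2% and a median level of 2.52 CPM, outside the autosomes' 48.2% to 51.5% and 1.61 to 2.30 CPM, and the part of both in this result was not tested.

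**Figure D5:**
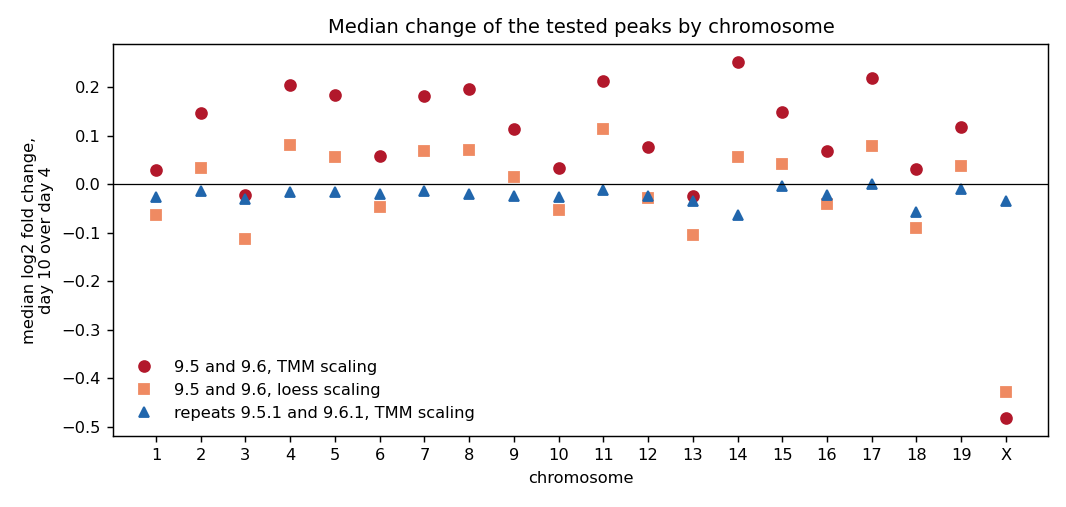
Median log2 fold change, day 10 over day 4, of the tested peaks of each chromosome in lines C and D, under TMM and the loess offset and in the repeat experiments under TMM. The X chromosome lies lowest under both scalings, at −0.48 and −0.43, and at −0.03 in the repeats.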

How the data were processed

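The authors aligned reads to GRCm38 with STAR (version not given in the sources used here), marked duplicates with Picard 2.27.4, called broad peaks with MACS2 2.2.7.1 and merged them over libraries. Their methods cite a human (GRCh38) blacklist for artefact regions. The deposited counts are read pairs assigned to 256400 consensus peaks by featureCounts 2.0.1, not normalized and with no shift of read ends recorded. The deposited broad peaks carry a −log10 q-value, and served only to say which peaks were detected in all replicates of a group.

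Counts passing filterByExpr were fitted with edgeR 4.0.16 (R 4.3.3, TMM, quasi-likelihood F-test) with a term for each line and experiment. The 23 samples gave 18 residual degrees of freedom and a common coefficient of biological variation of 0.171. The test was checked on simulated counts. That simulation set no general difference between the days in the share of counts in strong peaks, so the check does not cover such a difference. Each standard error is the size of the log2 fold change divided by the root of F. Single values were compared with exact two-sided permutation tests within combinations.

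Named peaks are, among calls with 1 sign in 4 combinations, the 12 largest gains and 12 largest losses, the next 8 of each at promoters, called promoters of the gene lists, and up to 5 by p in each direction from the other comparisons. The members, lists and alternatives were chosen with earlier results of these data known. Alternatives were DESeq2 1.42.0 size factors and Wald test, loess offsets (span 0.3), other filters, subsets and left-out samples. Sequences come from the RefSeq FASTA of GRCm38. Some items are not reported here.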

Additional observations from a re-analysis of the deposited data

Results flagged for a closer look

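These results are listed because the change from day 4 to day 10 in lines C and D differed from that in another set by a test of the difference itself. Against lines A and B, 2374 peaks differed in the positive and 6103 in the negative direction. Among the named peaks with a positive difference (C/D minus A/B, log2), the values were 2.23 at Gm4251, 2.22 at Gm45145, 1.94 at Fam241b, 1.89 at Tmem132c, 1.89 at Ulk4, 1.78 at Gm44722, 1.75 at 2210414F02Rik, 1.64 at Gm3222, 1.48 at St5, 1.47 at Gm37194, 1.46 at Olfr1375, 1.46 at Sdhaf2, 1.46 at Habp2, 1.34 at Mir6381 and 1.27 at Pcdhac1. Among those with a negative difference they were −1.57 at Rps18-ps1, −1.54 at Gm26522, −1.53 at Gimap7, −1.51 at Iqcn, −1.47 at Zfp24, −1.33 at Gm27952, −1.29 at Txndc11, −1.26 at Lhfp, −1.15 at AC148013.1, −0.95 at Ighd2-4, −0.88 at Rab30 and −0.66 at AY702102. These lists hold only the largest gains and losses and peaks picked by p in this comparison. Other peaks described above passed the same test, among them Cd69 (−1.27), Ercc6 (−1.12), both Fam71a peaks (−0.85 and −1.02), Atf3 (−1.01), Stk17b (−0.99) and Bend5 (−0.86). So did the peak downstream of Serpina3i (0.77). The Rasgrp3, Vav3, A630075F10Rik and Serpina3i promoter peaks did not.

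Between the experiments (9.6 minus 9.5), the promoter of 5730522E02Rik differed by −1.70. Between 9.5 with 9.6 and the repeats, 13744 peaks differed in the positive and 13433 in the negative direction. No group had 4 or more samples at one line, experiment and day, so single samples far from their group were not looked for by a fixed rule.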

How the results depend on the processing

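From 27662 gains, the count moved to 8123 with the loess offset, 2888 with the detection filter, 11389 with promoter peaks only, 15266 and 14505 with experiment 9.5 or 9.6 only, 17734 and 9258 with line C or D only, 34 with the share term and 17693 without 2 outlying day 10 libraries of 9.6. From 11318 losses, the count moved to 510 with the detection filter, 2035 with promoter peaks only and 127 with the share term. Leaving out each sample in turn gave 19485 to 31180 gains and 7960 to 15788 losses, the fewest gains and the fewest losses both without D at day 10 in 9.6, replicate 2. Replicate numbers did not pair the samples (correlations of −0.64 to 0.443 over 11 pairs, 5 above 0.1, and 4 samples best with their own number), and the replicate block gave 27610 gains and 12716 losses. DESeq2 size factors gave 25278 and 13502, and its Wald test 22980 and 13237.

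With loess, experiment 9.5 alone gave 3544 gains and 9.6 alone 5157, C/D against A/B gave 1015 and 1558, and 9.6 minus 9.5 gave 0 losses. With the near-duplicates kept apart the last gave 1 gain and 4 losses. Listed genes gave 25 gains at the peak of smallest p, and 12 losses with loess. In 200-base windows the share in the set over that in all tested peaks became 0.6 for GAS in gains, 1.48 for ETS-IRF in losses and 0.248 for SP/KLF in losses. The X median became −0.21 with the detection filter, −0.36 in 9.5 only and −0.23 with the share term, and ran from −0.54 to −0.41 without 1 sample. Signs reversed with the share term at Gas7 (−0.29), Cd70 (−0.0271), Mpo (−0.25), Icam2 (0.0680) and Etv5 (0.0301). The cause was not tested in any of these. Of 177 peaks followed, 103 kept their side of the thresholds with loess and 20 with the share term. These are the named peaks and further peaks singled out after their values were seen, not all of them described here, so the shares do not measure robustness in general. Weak peaks limit precision, since the largest gains lie near 1 CPM, a few counts per library.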
